A study of Mus musculus with 39 samples.

Results

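Lin28a, Lin28b, Hmga1, Hmga2, Igf2bp1, Igf2bp2 and Igf2bp3 are 7 genes used as markers of the age of cortical progenitors, and they were followed here in labelled cells of the mouse neocortex at embryonic day (E) 13 and E16. They were taken by name and not by a threshold on their level, but with earlier results of these data known. They are 7 of the 53379 genes in the count tables. Small pools of 200 to 400 cells had been sorted by fluorescence, and RNA was sequenced by Smart-Seq2, a full-length method without molecular identifiers. The embryos carried the cassettes of Mosaic Analysis with Double Markers (MADM) on chromosome 7, MADM-7-GT and MADM-7-TG, together with Cre recombinase under the Emx1 promoter, on a mixed C57BL/6J and CD1 background (the strain field names CD1). Embryos of both ages and cells of all 3 colours share this genotype, and no gene was deleted.

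In MADM, recombination between the homologous chromosomes 7 of a dividing cell leaves red (tdTomato) and green (GFP) daughter cells that hold both copies from a single parent (uniparental disomy), in opposite directions, whereas yellow cells hold a copy from each parent. Emx1-Cre acts in the dorsal telencephalic lineage, so the labelled cells are progenitors of that lineage and their descendants. In the study's crosses green stands for maternal and red for paternal disomy. The sample labels do not record this, so red and green are compared as colours here. None of the 7 genes lies on chromosome 7.

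After 3 libraries with under 40% uniquely aligned reads were left out, 5 libraries of each colour remained at E13 and 7 of each at E16, 36 in all. Libraries of the same age and replicate number were taken as coming from 1 embryo, because each replicate was a single individual in the study's methods. The 36 libraries then represent 6 embryos at E13 and 7 at E16. Counts in genes per kept library ranged from 472924 to 5205788, and 7858 to 13768 genes were detected. Levels are given as CPM, the count scaled to the library's effective size by TMM, and 3 counts, taken as the smallest level that a library can show, correspond to 0.576 to 6.34 CPM, a limit that covers counting error only. The markers of the dorsal telencephalic lineage summed to 190 to 1467 CPM in every kept library.

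Lin28a and Lin28b are RNA-binding proteins that bind precursors of the let-7 microRNAs and block their maturation. Mature let-7 lowers the messages of Lin28 itself, of Hmga2 and of other growth genes, and neural progenitors are known to lose Lin28 and Hmga2 and to gain let-7 as development proceeds. Hmga1 and Hmga2 are small chromatin proteins that bind the minor groove of AT-rich DNA, and Hmga2 is known for the self-renewal of young neural stem cells. Igf2bp1, Igf2bp2 and Igf2bp3 bind messenger RNAs, among them that of Igf2, and act on their stability, transport and translation.

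The let-7 sequences and their matches in the 7 genes are shown because they are the feature by which these genes are usually linked. RefSeq lists 10 mature mouse let-7 names, encoded at 12 loci on GRCm38.p6, and all 10 hold the same seed. In the 5 examples here the capitals mark that seed, bases 2 to 8 from the 5′ end.
let-7a-5p: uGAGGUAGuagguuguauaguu
let-7b-5p: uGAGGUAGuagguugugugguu
let-7c-5p: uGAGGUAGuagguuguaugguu
let-7i-5p: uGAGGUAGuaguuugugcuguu
miR-98-5p: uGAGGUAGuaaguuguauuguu

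The complement of the seed in a message reads CTACCTC, and it was searched on the transcript strand of the annotated 3′ untranslated region (UTR) of 1 transcript per gene. Among all 20957 protein-coding genes with a 3′ UTR, 8.86% held at least 1 match. All 7 members held one, with 17 matches in total. Hmga2, Lin28b and Igf2bp1 had 4 each, a number reached by 12 genes in all (0.0573%). Lin28a had 2, and Hmga1, Igf2bp2 and Igf2bp3 had 1 each.

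Longer 3′ UTRs hold more matches, and those of the members run from 1178 bases in Hmga1 to 6337 bases in Igf2bp1. Each was therefore set beside 3′ UTRs within 20% of its own length. Of those similar to the 3014 bases of Hmga2, 15.8% held a match and 0.0909% held 4 or more. For Lin28b (4445 bases) the shares were 23.9% and 0.159%, and for Igf2bp1 they were 33.6% and 0.178%. For Hmga1, Igf2bp2 and Igf2bp3, 8.07%, 11.8% and 13% of similar 3′ UTRs held at least 1 match, so that a single match there is not rare. A match is a stretch of letters, not a measured binding site.

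The 4 matches of Hmga2 are printed in full, since Hmga2 is the member that passed the age test in the embryo sums below, with 1 match each for the other 6 genes. The capitals mark the seed match, each line is 22 bases of the transcript strand, and coordinates are on GRCm38.
Hmga2, chr10:120364224-120364245, minus strand: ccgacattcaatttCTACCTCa
Hmga2, chr10:120362987-120363008, minus strand: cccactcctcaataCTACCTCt
Hmga2, chr10:120362549-120362570, minus strand: tgatttgcaaggaaCTACCTCc
Hmga2, chr10:120361691-120361712, minus strand: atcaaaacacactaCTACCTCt
Lin28a, chr4:134005189-134005210, minus strand: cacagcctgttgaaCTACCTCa
Lin28b, chr10:45381022-45381043, minus strand: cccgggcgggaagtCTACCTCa
Hmga1, chr17:27563278-27563299, plus strand: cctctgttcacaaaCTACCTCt
Igf2bp1, chr11:95961778-95961799, minus strand: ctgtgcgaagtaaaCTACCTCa
Igf2bp2, chr16:22059473-22059494, minus strand: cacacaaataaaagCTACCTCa
Igf2bp3, chr6:49086787-49086808, minus strand: gcatttttactcaaCTACCTCa
In Hmga2 the matches begin at bases 58, 1295, 1733 and 2591 after the stop codon, and only the first is followed by an A. In Lin28b the first begins at base 36. Of the 7 genes, Hmga1 alone has no match followed by an A.

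**Figure D1:**
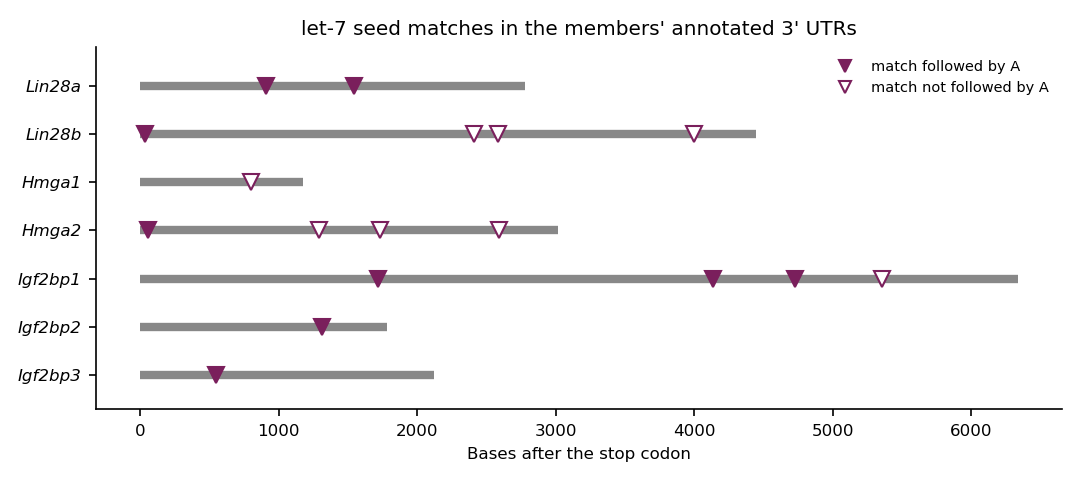
Positions of the let-7 seed matches (points) along the annotated 3′ untranslated region of each of the 7 genes (horizontal lines), in bases after the stop codon. Hmga2, Lin28b and Igf2bp1 hold 4 matches each, and the line of Igf2bp1, with 6337 bases, is the longest.

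Lin28a (chr4:134003330-134018841, minus strand) had 0 counts in all 39 libraries, the 3 left out included. Its locus overlaps the opposite-strand gene Gm13061, also at 0. Reads on exons of both would be counted for neither, but how far their exons overlap was not checked. The 0 is therefore given as listed, and whether Lin28a is absent was not tested. It passed no filter, and no fold or test can be given for it.

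Lin28b (chr10:45376620-45486395, minus strand) was seen in few libraries. In green cells at E13 it measured 0, 0.426, 24.1, 34.0 and 42.1 CPM. In yellow cells at E13 it measured 0, 4.08, 4.66, 4.70 and 19.9 CPM, and in red cells it was 0 in 4 libraries and 1.63 CPM in the other. The green libraries thus split into 3 with clear signal and 2 at or near 0, and red libraries were at or near 0 throughout.
At E16, Lin28b was 0 in 18 of 21 libraries. The exceptions were a green library at 2.56 CPM, a red library at 0.255 CPM and a yellow library at 19.2 CPM, which was as high as the highest yellow library of E13. Both ages therefore overlapped in each colour.

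Hmga2 (chr10:120361275-120476469, minus strand) was the member with a clear difference in level between the ages. At E13 it measured 22.6, 46.0, 67.2, 78.5 and 98.8 CPM in the 5 green libraries. In the 5 red libraries it measured 15.8, 50.5, 62.6, 114 and 157 CPM. In the 5 yellow libraries it measured 0, 39.7, 47.7, 51.0 and 51.8 CPM. It was present in 14 of the 15 E13 libraries, and the exception was yellow replicate 2, which also correlated least with the rest of its group.
At E16, Hmga2 was 0 in all 7 yellow libraries and in 6 of the 7 red ones, with 1.37 CPM (5 counts) in the other. In the 7 green libraries the lowest level was 0, the median 0.270 CPM and the highest 18.4 CPM, the last from 93 counts in replicate 6. Red and green cells did not overlap between ages, since the highest E16 level lay below the lowest E13 level in each. In yellow cells the ages met at 0 through the 1 E13 library without Hmga2.

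Hmga1 (chr17:27556497-27563674, plus strand) was far lower. At E13 it measured 5.17 to 22.6 CPM in green cells (median 8.45), 2.01 to 7.71 CPM in red cells (median 5.71) and 0.487 to 5.59 CPM in yellow cells (median 1.97). At E16 the medians were 0.702 CPM in green, 1.02 CPM in red and 2.15 CPM in yellow cells. The green ages did not overlap, but only narrowly. The lowest E13 level, 5.17 CPM, came from 7 counts and the highest E16 level, 4.99 CPM, from 8 counts. In yellow cells 1 E16 library, replicate 7, reached 20.1 CPM, above all E13 yellow libraries. Hmga1 shares its locus with the opposite-strand gene AI413582, at 24.3 to 84.2 CPM on average over the groups, and has the near copy Hmga1b, which drew 98 counts over all libraries. Reads that fit both copies were not kept, and without strand information the values of Hmga1 are uncertain.

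Igf2bp1 (chr11:95957163-96005940, minus strand) measured 16.3 to 27.7 CPM in green cells, 13.9 to 38.4 CPM in red cells and 0.975 to 16.6 CPM in yellow cells at E13. At E16 the ranges were 0 to 36.7 CPM in green cells (median 7.30), 0 to 11.1 CPM in red cells (median 2.47) and 0 to 18.9 CPM in yellow cells (median 1.92). Only in red cells did the ages not overlap.
Igf2bp2 (chr16:22059009-22163299, minus strand) measured 28.9 to 120 CPM in green cells, 59.5 to 131 CPM in red cells and 3.65 to 104 CPM in yellow cells at E13. At E16 it was 18.8 to 58.8 CPM in green cells (median 35), 0 to 50.7 CPM in red cells (median 7.89) and 8.25 to 197 CPM in yellow cells (median 30.6). Again the ages were apart in red cells only, and the highest yellow level belonged to the E16 library, replicate 7, that was also highest for Hmga1. That library had the fewest genes detected of all kept libraries (7858) and the lowest median correlation with its group (0.493), and 44.1% of its uniquely aligned reads fell on no gene.
Igf2bp3 (chr6:49085223-49214957, minus strand) was high at both ages. At E13 it measured 51.7 to 378 CPM in green cells (median 106), 68.3 to 247 CPM in red cells (median 122) and 33.9 to 135 CPM in yellow cells (median 70.5). At E16 it measured 22.4 to 87.7 CPM in green cells (median 45.3), 0 to 225 CPM in red cells (median 58.3) and 1.06 to 107 CPM in yellow cells (median 51.5). The ages overlapped in all 3 colours. Igf2bp3 overlaps the opposite-strand gene Malsu1, whose group means were 72.6 to 152 CPM, so the unstranded counts of the pair may not be fully apart.

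**Figure D2:**
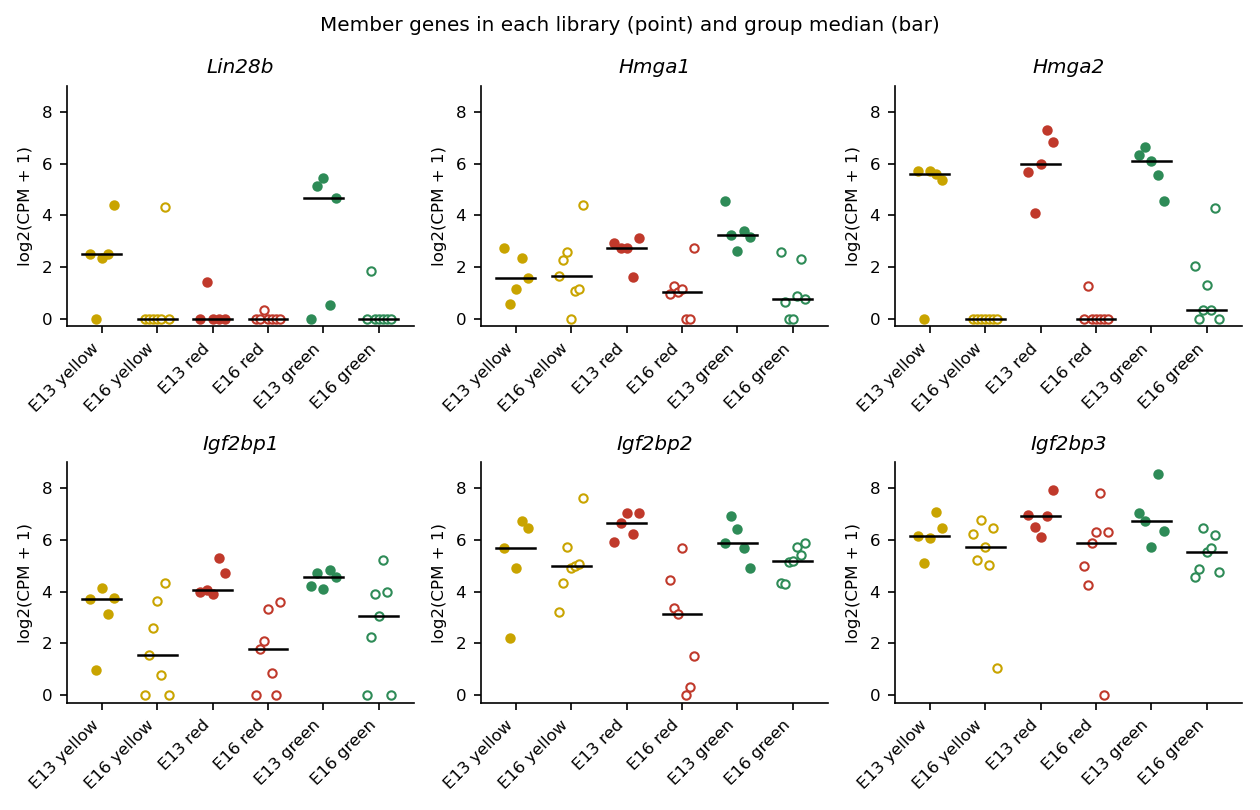
Level of 6 of the genes in each of the 36 kept libraries, as log2(CPM + 1), by age and colour. Points are libraries and bars are group medians. Hmga2 sits at or near 0 in the E16 libraries except green replicate 6 at 18.4 CPM, while Igf2bp3 spans both ages.

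To set the genes beside each other, CPM were divided by exon length, in CPM per kilobase, after the counts of an embryo's colours had been summed. At E13 the order of these levels was Igf2bp3 (13.4 ± 4.17, SD, n = 6), Igf2bp2 (10.8 ± 3.74), Hmga2 (8.57 ± 2.02), Hmga1 (2.57 ± 1.03), Igf2bp1 (1.64 ± 0.62), Lin28b (0.840 ± 0.641) and Lin28a at 0. Neighbours overlapped, save that Hmga2 was above Hmga1 in 6 of 6 embryos without overlap, and that Lin28b was above Lin28a in 6 of 6. At E16 the order was Igf2bp3 (6.84 ± 3.26, SD, n = 7), Igf2bp2 (5.36 ± 4.91), Hmga1 (1.21 ± 1.43), Igf2bp1 (0.726 ± 0.614), Hmga2 (0.188 ± 0.386), Lin28b (0.117 ± 0.256) and Lin28a at 0, and all neighbours overlapped. Hmga2 thus stood at the third place at E13 and at the fifth place at E16.

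The first question is how the levels at E16 compare with those at E13. Each colour was tested on its own with edgeR's quasi-likelihood test, and a further test used the counts summed by embryo, with Benjamini-Hochberg adjusted p-values over all genes tested. Log2 fold changes are E16 over E13, so that a negative value is a lower level at E16. In bulk pools, fewer cells of a type and less RNA per cell cannot be told apart. The tests of the colours and of the sums share embryos and are not independent of each other.

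Summed by embryo, Hmga2 measured 45, 46.2, 54.4, 57.4, 63.2 and 82.2 CPM at E13. At E16 it measured 0, 0.0909, 0.112, 0.151, 0.618, 0.764 and 7.17 CPM. The ages did not overlap, and the 1 E16 embryo above 1 CPM was number 6, whose green library held 93 counts of Hmga2. Hmga2 fell by 5.46 on the log2 scale (SE 1.00, adjusted p = 0.00537 by edgeR's quasi-likelihood test), and the ratio of the means was 45.7 (58.1 ± 13.7 against 1.27 ± 2.62 CPM). Of the 13776 genes tested in the sums, 3.8% passed in either direction, 1.88% were lower at E16, and 1.44% were lower without overlap. Hmga2 was the only member of 6 tested that passed, and the only one without overlap. The E13 sums of embryos 3 and 5 are partial, as the former lacks the yellow library and the latter has only that one.

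The log2 changes of the other tested members in the sums were also below 0, and none passed. Igf2bp3 measured 63.9 to 150 CPM at E13 (109.6 ± 34.0, SD, n = 6) and 23.2 to 93.3 CPM at E16 (55.8 ± 26.6, n = 7), a log2 change of -0.98 (SE 0.35, 95% interval -1.72 to -0.24, adjusted p = 0.121 by edgeR). Igf2bp2 measured 79.8 ± 27.7 CPM and 39.7 ± 36.3 CPM, a log2 change of -1.01 (SE 0.46, adjusted p = 0.230). Without E16 embryo 7, whose 119 CPM was as high as the highest E13 embryos, the change of Igf2bp2 was -1.62 with an adjusted p of 0.0141. That embryo had the highest E16 level, so its removal enlarges the fall by construction and is not a further test. Igf2bp1 (15.9 ± 5.97 and 7.03 ± 5.94 CPM), Hmga1 (5.46 ± 2.18 and 2.58 ± 3.04 CPM) and Lin28b (7.62 ± 5.81 and 1.06 ± 2.32 CPM) had log2 changes of -1.18, -1.09 and -2.81, with adjusted p-values of 0.492, 0.545 and 0.307. The age ranges overlapped for each of these genes. The median log2 change was -1.14 over the 6 tested members and 0.03 over all genes tested. Lin28b and Hmga2 reach the count minimum mainly through E13, so that median is a description only.

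In red cells, Hmga2 averaged 80.0 ± 55.6 CPM at E13 (n = 5) and 0.196 ± 0.519 CPM at E16 (n = 7). It fell by 8.21 on the log2 scale (SE 1.35, adjusted p = 0.0195 by edgeR), and was the only member of 5 tested that passed. Hmga2 reached the count minimum here through E13, with 1587 counts in the 5 E13 libraries and 5 in the 7 E16 ones. So did Hmga1 (112 against 18 counts) and Igf2bp1 (423 against 60). Among the 11174 genes tested in red cells, 0.322% passed in either direction and 0.152% were lower. This call was lost without E13 red replicate 4, the library with the highest level (adjusted p = 0.0609), with the left-out library restored (0.0725) and with the replicate number as a block (0.139). Hmga2, Igf2bp1 and Igf2bp2 were lower at E16 without overlap, against 1.59% of all genes tested. Of the E16 red libraries, replicates 5 and 6 stood apart, with 8803 and 9210 genes detected and median correlations of 0.553 and 0.594 with their group. Replicate 7 was the shallowest kept library, with 472924 counts. Igf2bp2 measured 0, 0.255 and 1.85 CPM in replicates 5, 6 and 7. The highest Igf2bp1 level of E16 red cells, 11.1 CPM in replicate 7, came from 6 counts. Igf2bp2 had a log2 change of -2.89 (SE 1.09, adjusted p = 0.277) and Igf2bp1 of -2.49 (SE 1.31, adjusted p = 0.517). Igf2bp3 and Hmga1 had changes of -0.91 and -1.97, with adjusted p-values of 0.820 and 0.698. Lin28b had too few counts in red cells to be tested.

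In green cells none of the 6 tested members passed, where 1.39% of 11186 genes did and 0.644% were lower. Hmga2 averaged 62.6 ± 29.4 CPM at E13 and 3.36 ± 6.73 CPM at E16, a log2 change of -4.10 (SE 1.27, adjusted p = 0.126 by edgeR). Without E16 green replicate 6, the library at 18.4 CPM, the change was -6.41 with an adjusted p of 0.0193. Leaving out the highest E16 library enlarges the fall by construction, so this is not a further test. Hmga2 and Hmga1 were lower at E16 without overlap, against 1.85% of all genes tested. For Hmga1 the gap rests on few reads, 5.17 CPM from 7 counts at E13 against 4.99 CPM from 8 counts at E16. Lin28b had a log2 change of -5.55 (SE 1.85, adjusted p = 0.147) and Igf2bp3 of -1.59 (SE 0.54, adjusted p = 0.150). Lin28b (348 counts at E13 against 9 at E16) and Hmga1 (157 against 36) reached the count minimum through E13. Hmga1, Igf2bp1 and Igf2bp2 had changes of -2.70, -0.94 and -0.86, with adjusted p-values of 0.352, 0.805 and 0.481.

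In yellow cells none of 6 tested members passed either, where 0.149% of the 11378 genes tested did and 0.0527% were lower. Hmga2 averaged 38.0 ± 21.8 CPM at E13 against 0 in all 7 E16 libraries, which makes it at least 29.4-fold higher at E13 against a floor of 3 counts in each E16 library (1.29 CPM on average). In yellow cells Hmga2 reached the count minimum through E13 alone, with 704 counts in the 5 E13 libraries and 0 at E16. Its unadjusted p was 0.000307 and its adjusted p 0.108 by edgeR. Without E13 yellow replicate 2, the E13 library without Hmga2, the adjusted p was 0.0218. Removal of the lowest E13 library enlarges the fall by construction, so this too is not a further test. No member was lower without overlap, where 0.756% of all genes were. Hmga1 had a log2 change of 0.81, and Lin28b, Igf2bp1, Igf2bp2 and Igf2bp3 had changes of -1.24, -0.84, -0.09 and -0.47, each with an adjusted p of 0.998 or 0.999. Whether the age change of a gene differs between red and green cells was not tested.

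**Figure D3:**
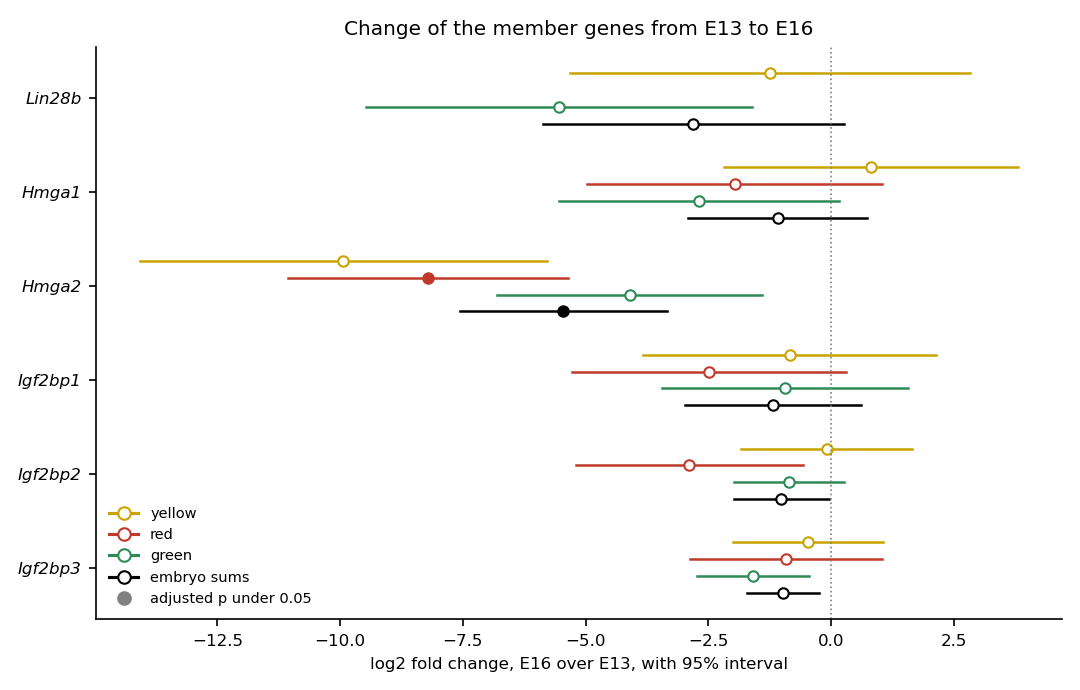
Log2 fold change of E16 over E13 for 6 of the genes in each colour and in the embryo sums, with 95% intervals from the edgeR fit. Filled points have an adjusted p under 0.05. Only the points of Hmga2 in red cells and in the sums are filled, and the intervals of Igf2bp3 are the narrowest in the sums.

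The second question is how singly coloured cells, red and green, compare with yellow cells of the same embryo. At E13, 4 embryos kept all 3 colours. Igf2bp3 was higher than yellow in 4 of 4 red libraries, by 0.820, 0.880, 1.40 and 1.5 on the log2 CPM scale. In green libraries the differences were -0.117, 0.905, 1.62 and 2.5, so 3 of 4 were higher. Over both colours, with the embryo as a block, Igf2bp3 differed by 1.26 (SE 0.49, 95% interval 0.20 to 2.32), with an unadjusted p of 0.0234 and an adjusted p of 0.668 by edgeR. None of 6 tested members passed, and 0.00848% of the 11786 genes tested did, which is 1 gene.

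Hmga1 and Igf2bp1 were higher than yellow in 4 of 4 red and 4 of 4 green libraries, and Igf2bp2 in 4 red and 3 green ones. Their fitted differences were 2.08, 1.30 and 0.91, with 95% intervals of -1.09 to 5.26, -1.01 to 3.61 and -0.79 to 2.61. Hmga2 was higher in 3 red and 2 green libraries, with a difference of 1.35 and an interval of -1.13 to 3.84. In the embryo numbered 2, where yellow cells had no Hmga2, both singly coloured libraries were above yellow, by 4.73 and 7.33. The yellow library of that embryo stood apart, with 9655 genes detected and a median correlation of 0.557 with its group. Igf2bp1 differed there by 3.36 and 4.05 and in the other embryos by 0.27 to 1.18, and Igf2bp2 by 4.55 and 4.82 against -1.58 to 1.31. Without this embryo the fitted differences were 1.67 for Hmga1, 0.73 for Igf2bp1, 0.25 for Igf2bp2, 0.56 for Hmga2 and 1.16 for Igf2bp3.
Lin28b had a fitted difference of -4.03 over both colours (interval -8.67 to 0.60, adjusted p = 0.753), which came mostly from red cells. Red minus yellow was -6.97 with an unadjusted p of 0.0218 and an adjusted p of 0.999. Green minus yellow was -1.10 with an adjusted p of 0.967 by edgeR, with green above yellow in 2 of 4 embryos, while the mean level was higher in green (20.1 CPM) than in yellow cells (6.66 CPM). Green minus red was 5.88 with an unadjusted p of 0.0307 and an adjusted p of 1. Green was higher than red in 4 of the 5 E13 embryos with that pair and both were 0 in the other. In these colour contrasts 0% (red minus yellow), 0.0255% (green minus yellow) and 0% (green minus red) of all genes passed, and no member did. Since both single colours are set against the same yellow libraries, their differences from yellow are not independent.

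At E16 only the Igf2bp genes had enough counts to be tested. Igf2bp1, Igf2bp2 and Igf2bp3 differed from yellow by 0.63, -1.09 and -0.06, with intervals of -2.72 to 3.97, -3.04 to 0.86 and -1.90 to 1.78. None passed, and 0% of the 10794 genes tested did. With no gene past the threshold by edgeR, 257 had an unadjusted p under 0.05, and DESeq2 called 87. Hmga2 was too low to be tested at E16, with 0 counts in all yellow libraries and more than 3 counts in 2 of the 7 green ones.
The change of the singly coloured minus yellow difference from E13 to E16 was tested as an interaction. It was -1.32 for Igf2bp3 (SE 1.18), -2.01 for Igf2bp2 (SE 1.38) and -0.67 for Igf2bp1 (SE 2.11), each with an adjusted p of 1 by edgeR. Lin28b, Hmga1 and Hmga2 entered this fit through their E13 counts and had too few at E16 for the colour test, so their fitted values are not read. No gene of 11472 passed, which is 0%, while 475 had an unadjusted p under 0.05 and DESeq2 called 219.

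**Figure D4:**
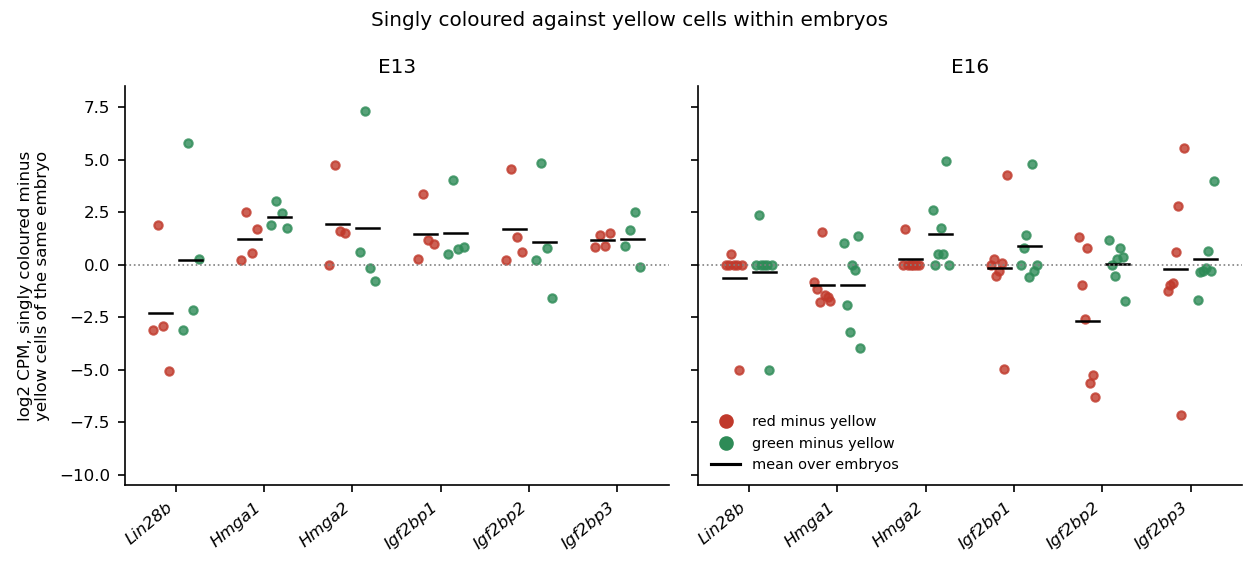
Difference in log2 CPM between a singly coloured library and the yellow library of the same embryo, for 6 of the genes, in the 4 E13 embryos with all colours and the 7 E16 embryos. Points are embryos, red and green by colour, and 0 is no difference. The red points of Igf2bp3 at E13 lie between 0.820 and 1.5.

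Markers of progenitors were read beside the members. Radial glia markers, 10 genes, summed at E13 to 967 to 1720 CPM in yellow, 2072 to 3118 CPM in red and 2320 to 4011 CPM in green cells. At E16 the sums were 222 to 1956, 1314 to 3916 and 1020 to 3743 CPM. Ages overlapped in this sum in each colour, although 6 of 10 marker genes, among them Nes, Vim, Pax6 and Hes1, were lower at E16 in the embryo sums and none was higher. Log2 changes there were below 0 for 8 of the 10 markers and above 0 for 2, with a median of -1.78. A sum as high as at E13 therefore does not mean an equal share of radial glia.
Among E16 libraries that reached the lowest E13 radial glia sum of their colour, Hmga2 was at 0 in all 4 yellow and all 3 red ones, and at most 3.12 CPM in the 3 green ones, of which 1 was at 0. The yellow limit of 967 CPM was that of E13 replicate 2, itself without Hmga2. The next lowest E13 yellow sum was 1295 CPM, which E16 yellow replicate 6, at 1091 CPM, did not reach. The sums of the 15 proliferation genes did not overlap between ages in red (2079 to 4768 and 400 to 1380 CPM) and green cells (2749 to 5352 and 313 to 956 CPM). In yellow cells they were 544 to 2156 and 377 to 686 CPM. The 544 CPM belonged to E13 yellow replicate 2, and the next lowest E13 yellow sum was 1599 CPM. In the embryo sums 12 of the 15 were lower at E16 and none was higher. The part of radial glia and of proliferation genes in the lower Hmga2 at E16 was not tested.
At E13 the proliferation genes were above yellow in the singly coloured cells for 15 of 15 genes (median log2 difference 1.29), the tested radial glia markers for 9 of 9, and the projection neuron markers below for 10 of 10, and none of these genes passed the test over both single colours. In green minus yellow alone, the radial glia marker Vim was higher by 1.72 (SE 0.25, adjusted p = 0.04996 by edgeR). The fitted differences of Igf2bp3, Igf2bp1 and Hmga1 in the same comparison were above 0 without passing, and the part of the marker differences in them was not tested. At E16 too, 14 of 15 proliferation genes (median log2 difference 1.26) and 8 of 8 tested radial glia markers were above yellow. The projection neuron markers split there into 5 below and 5 above, and none of these genes passed.

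**Figure D5:**
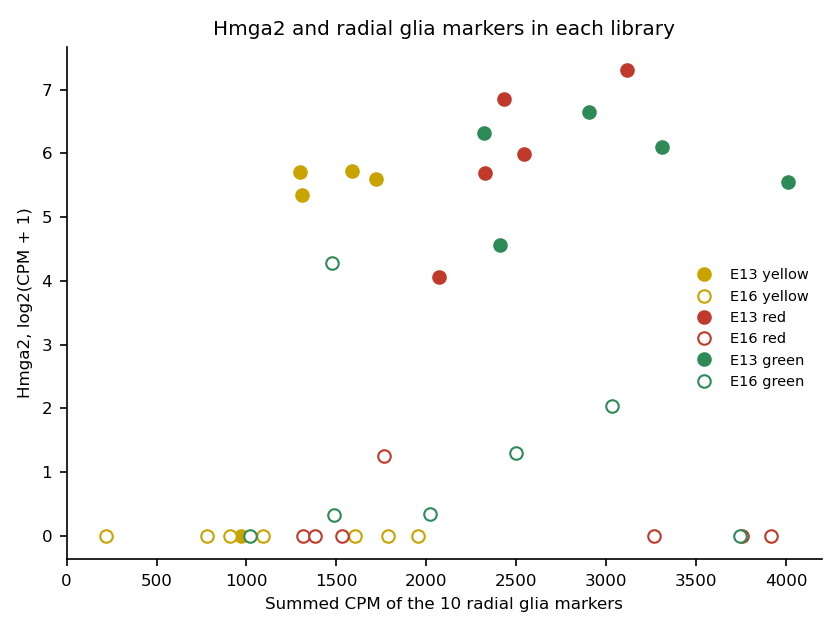
Hmga2 level, as log2(CPM + 1), against the summed level of the 10 radial glia markers in CPM in each kept library, by age and colour. E16 libraries with sums as high as those of E13 lie at or near 0 on the Hmga2 axis, with green replicate 6 at 18.4 CPM as the highest E16 point. Of the 10 markers, 8 had log2 changes below 0 in the embryo sums, so an equal sum is not an equal share of radial glia.

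Markers of other cells also differed between libraries. The erythroid markers summed to 0.22 to 53633 CPM at E13 and to 0.468 to 7018 CPM at E16, and those of pericytes and mesenchyme to 0 to 363 and 0 to 50.2 CPM. Hmga2 was also read in the E13 libraries where these markers are low. In the 4 E13 libraries with under 5 CPM of erythroid markers, Hmga2 was present at 22.6 to 114 CPM. In the 5 with under 5 CPM of pericyte and mesenchyme markers, it was present in 4, at up to 114 CPM. In the 11 with under 5 CPM of microglia markers it measured 15.8 to 157 CPM. It was present in 11 of the 12 with under 5 CPM of endothelial markers, in 5 of 5 with that little of oligodendrocyte precursor markers and in 1 of 2 with that little of interneuron markers. None of the 15 E13 libraries had under 5 CPM of Cajal-Retzius markers. The part of these cells in the level of Hmga2 was not tested.

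Other genes of the pathway were read by list in the embryo sums. Of 12 tested genes for let-7 processing and turnover, such as Dicer1, Drosha and Dis3l2, none passed, 7 were below 0 and the median log2 change was -0.25. Trim71, another let-7 target and cofactor on the list, was at 0 in all but the E13 yellow group.
Mir99ahg is the transcript around let-7c-5p (chr16:77236317-77773427, plus strand, with the mature sequence at 77599672 to 77599693). Of 3 listed host transcripts, 1 was not matched to the annotation, and of the 2 measured only Mir99ahg had enough counts. It measured 54.0 to 85.5 CPM at E13 (67.7 ± 13, n = 6) and 106 to 189 CPM at E16 (136 ± 32.1, n = 7). The ages did not overlap, and Mir99ahg rose by 1.00 on the log2 scale (SE 0.23, adjusted p = 0.0224 by edgeR). Of all genes tested in the sums, 1.92% passed as higher at E16, and the share higher without overlap is not given here. In the single colours the host transcript did not pass, with log2 changes of 0.47 in yellow, 1.22 in red and 0.49 in green cells. The summed host levels overlapped between ages in each colour. Counts of a host transcript are not counts of the microRNA, which these libraries do not measure.

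Of the 16 tested further let-7 targets, 2 were lower, none was higher and 9 were below 0 (median log2 change -0.12), and 9 of the 16 hold the seed match in their 3′ UTR. Ccnd2, a D-type cyclin of the G1 phase, measured 379 ± 139 CPM at E13 and 127 ± 31.0 CPM at E16, and fell by 1.58 (SE 0.25, adjusted p = 0.00201 by edgeR). Dna2, a nuclease and helicase of DNA replication, fell by 2.74 (SE 0.66, adjusted p = 0.0305). In green cells Ccnd2 fell by 2.30 (SE 0.44, adjusted p = 0.0176).
Of the 8 tested genes of the insulin-like growth factor axis none passed, 6 were below 0 and the median was -0.26. Igf2, the message after which the Igf2bp genes are named, was listed at 0 in all kept libraries, but its annotated locus overlaps another gene, and reads that fall on overlapping genes were counted for neither, so its expression cannot be read here. Of 7 other chromatin architecture factors only Hmgn2 passed, with a log2 change of -3.84 (adjusted p = 0.0303), and its ages overlapped, with 11.9 to 1242 CPM at E13 and 14.6 to 32.5 CPM at E16.

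Of the late radial glia genes, 4 of 14 tested in the embryo sums were higher at E16, none was lower (1.92% of all genes tested were higher), and the median log2 change was 0.71. Sparcl1, a secreted matrix protein of astroglia, rose by 3.26 (adjusted p = 0.00485 by edgeR), from 5.45 ± 3.90 to 52.5 ± 22.2 CPM. Zbtb20, a transcription factor of late progenitors and astrocytes, rose by 2.20 (adjusted p = 0.0104). Ptprz1, a receptor phosphatase of radial glia, rose by 2.17 (adjusted p = 0.0361), with 21.8 to 237 CPM at E13 and 161 to 668 CPM at E16. Slco1c1 was at 0 in all E13 embryos and reached 13.4 CPM at E16. These lists were assembled with earlier results of the data known, so their counts are descriptions.

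Likeness of pattern was measured as Pearson's r of log2 CPM across the 36 libraries, against 11472 genes. These points share embryos, depth and age, and the values are descriptions. The genes most like Hmga2 were Id4 (0.853), Gadd45g (0.849), Trip6 (0.848), Cdt1 (0.840) and Sp8 (0.836). For Igf2bp3 they were Nucks1 (0.889), Ddx39 (0.865), Cand1 (0.859), Trp53 (0.855) and Arl5b (0.850). The leading genes for Igf2bp2, Igf2bp1, Hmga1 and Lin28b were Gm47018 (0.829), Slit2 (0.773), Srsf3 (0.728) and Ildr2 (0.748). Among the members the highest values were 0.640 between Hmga2 and Igf2bp1 and 0.631 between Igf2bp1 and Igf2bp3, and no member was among the 5 genes most like another.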

How the data were processed

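RNA-seq libraries of sorted MADM-7 neocortex cells at E13 and E16 were analysed. Per the submitters' processing notes and methods, the authors aligned reads with STAR 2.5.0c to GRCm38 with Gencode M16, kept uniquely aligned reads and deposited counts per gene, not normalised. The unstranded count column was used here. Symbols come from Gencode M21 of the same build (53274 of 53379 genes matched), and let-7 sequences from RefSeq. Libraries with under 40% uniquely aligned reads were left out (3 of 39), and groups follow the age and colour in the labels.

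The test was the quasi-likelihood F-test of edgeR 4.0.16 (R 4.3.3, TMM) on genes whose mean count was at least 10, with Benjamini-Hochberg adjustment and a threshold of 0.05. Age tests had no block, and colour tests had the embryo as a block. The tests were tried on simulated data. Alternatives were DESeq2 1.42.0, its size factors, no count filter, all libraries, a correlation minimum, blocking, 1 fit for all colours and leaving out each replicate. Same-numbered libraries of an age were taken as 1 individual, from the replicate number in the labels and the study's methods. Their deviations correlated at 0.044 (E13) and 0.029 (E16) on average, against -0.0092 and -0.0035 for other numbers. The 7 members are accounted for in every comparison, list genes only where they pass (at most 4 by smallest p), and similar genes as the 5 with the highest r. The members and lists were chosen with earlier results of these data known.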

Additional observations from a re-analysis of the deposited data

Results flagged for a closer look

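In 16 of 42 groups of a gene, age and colour, 1 library lay far from the others by Dixon's criterion, which chance alone meets in about 1 group in 20 for normally distributed values. The 42 include groups at 0 in every library, Lin28a throughout and Hmga2 in E16 yellow cells, which could not meet it. Where all other libraries are at 0, a single read meets it, as for Lin28b in E16 red replicate 3 (1 count). Hmga2 was 18.4 CPM in E16 green replicate 6, 1.37 CPM in E16 red replicate 2 and 0 in E13 yellow replicate 2. Lin28b was 1.63 CPM in E13 red replicate 2, 19.9 CPM in E13 yellow replicate 6, 2.56 CPM in E16 green replicate 2, 0.255 CPM in E16 red replicate 3 and 19.2 CPM in E16 yellow replicate 6. Hmga1 was 22.6 CPM in E13 green replicate 1, 5.56 CPM in E16 red replicate 7 and 20.1 CPM in E16 yellow replicate 7. Igf2bp2 was 197 CPM in that same yellow library and 50.7 CPM in E16 red replicate 4, and Igf2bp1 was 36.7 CPM in E16 green replicate 5. Igf2bp3 was 378 CPM in E13 green replicate 4 and 225 CPM in E16 red replicate 5.

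In the 3 libraries left out for few uniquely aligned reads, some levels lay above those of the kept yellow libraries of E13. In E13 yellow replicate 3, Igf2bp2 was 397 CPM and Igf2bp1 was 67.5 CPM, where the kept yellow libraries reached 104 and 16.6 CPM. In E13 green replicate 5, Igf2bp3 was 652 CPM, from 303 counts, where the kept green libraries reached 378 CPM and the yellow ones 135 CPM. Hmga2 in these libraries was 27.4 CPM in yellow replicate 3, 1.25 CPM in red replicate 5 and 0 in green replicate 5.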

How the results depend on the processing

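Of 249 fold changes of members recomputed under other settings, 233 kept their direction and side of the threshold, and so did 397 of 412 with 1 library or embryo left out. Of the counts of called genes, 23 of 46 and 36 of 75 stayed within 1.5 times. In the 19 alternatives for the embryo sums that gave it an adjusted p, Hmga2 was lower at E16 with an adjusted p of 6.35e-05 to 0.0185; DESeq2 gave it none. The number of genes called was less stable. DESeq2 called 194 genes in yellow, 307 in red and 692 in green cells and 1267 in the sums, 558 and 87 for singly coloured against yellow cells at E13 and E16, and 219 for the age difference. With no count filter it was 55 in yellow cells, 20 at E13, 2 at E16 and 26 for the age difference. DESeq2 size factors gave 2 at E13. With all libraries kept it was 5 in red cells, 36 in green cells and 0 at E13. All colours in 1 fit gave 89 in red cells. A correlation minimum of 0.6, chosen after seeing the data, gave 146 in yellow cells, 189 in red cells and 9 at E13, and the planned minimum of 0.8 was not run because it left 2 libraries. Leaving out 1 replicate in turn gave 1 (without E13 yellow 4) to 31 (without E16 yellow 7) genes in yellow cells, 5 (without E13 red 2) to 78 (without E16 red 5) in red, 71 (without E16 green 3) to 203 (without E16 green 7) in green, 297 (without E13 embryo 4) to 570 (without E16 embryo 7) in the sums, 0 (without E13 embryo 1) to 7 (without E13 embryo 2) at E13, and 0 to 1 for the age difference.

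With the replicate number as a block the ages gave 6 genes in yellow, 15 in red and 59 in green cells, and no replicate block gave 9 at E13. Across ages the numbers do not pair animals, since embryos of different ages are different animals. Of 15 same-numbered correlations across ages, 0 were over 0.1, and 2 of 15 libraries correlated best with their own number. Within an age, 1 of 13 at E13 and 0 of 21 at E16 were over 0.1, so this count does not tell paired from unpaired numbers. The block turned the log2 change of Hmga1 in yellow cells to -1.06, and leaving it out turned Igf2bp3 at E16 to 0.013 and the age difference of Lin28b, which has too few E16 counts to be read, to -2.60.

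Beside the replicate calls in the report, Hmga2 in yellow cells passed with DESeq2 (adjusted p = 1.34e-05), without a filter (0.0163), with the 0.6 minimum (0.00191) and with all colours in 1 fit (0.00793), and in green cells with DESeq2 (0.0109). With 0 counts in the E16 yellow libraries, Hmga2 entered these yellow fits through its E13 counts. Igf2bp3 passed with DESeq2 in green cells (0.0393) and with the 0.6 minimum in the sums (0.0451). Igf2bp2 passed in the sums with the 0.6 minimum (0.0457) and the block (0.0326). Keeping all libraries turned Igf2bp2 at E13 to -0.25 and the age difference of Igf2bp1 to 0.50. Leaving out 1 library or embryo in turn moved Igf2bp2 in yellow cells between -0.92 and 0.27, Igf2bp3 at E16 between -0.47 and 0.29, and the age difference of Igf2bp1 between -1.22 and 0.057, so that each changed sign. The causes of these shifts were not tested. At E16, Lin28b, Hmga1 and Hmga2 had too few counts for the colour tests.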
